A study of Rattus norvegicus with 30 samples.

Results

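Potassium channel genes were followed in kidneys of male pups of the stroke-prone spontaneously hypertensive rat (SHRSP), a strain that develops high blood pressure. Total RNA of whole kidney was hybridised to 30 GeneChip rat arrays, 5 in each of 6 groups. Dams received 9% casein (low protein, LP) or 20% casein (control, CN) during pregnancy and a common commercial diet after delivery, and pups were sampled on postnatal days 5, 10 and 28 (D5-LP, D5-CN, D10-LP, D10-CN, D28-LP and D28-CN). All groups were thus of 1 strain and 1 sex, and differed in age and in the diet of the mother. Channel genes were taken from gene symbols that begin with Kcn, with the probe set of the highest mean over the 30 arrays standing for each gene. They were selected on their measured level, a mean of 6 or more on the log2 scale in at least 1 of the 6 groups, which 33 of 73 measured genes reached. The mean was 6 or more in all 6 groups for 21 of the 33.

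Potassium channels let potassium ions pass through the cell membrane and set the membrane voltage. In the kidney they recycle potassium beside the sodium pump on the blood side of tubule cells, secrete potassium into the urine in the collecting duct and set the tone of renal vessels. Inward rectifier (Kir) channels conduct best into the cell, tandem pore-domain (K2P) channels give a background leak, voltage-gated (Kv) channels open on depolarisation, and channels of a further class open with intracellular calcium or sodium. Auxiliary subunits change the gating or the transport of a pore subunit. The 33 genes comprised 10 of 14 Kir genes, 5 of 11 K2P genes, 8 of 31 Kv genes, 3 of 5 calcium- or sodium-activated genes and 7 of 12 auxiliary subunit genes.

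At the level threshold, *Kcnab2*, a beta subunit of Kv1 channels, had the lowest accepted value, with a mean of 6.06 in D10-LP kidneys. Its 30 arrays lay between 5.84 and 6.18. *Kcnq3*, a Kv7 channel subunit, was the first gene outside, with a mean of 5.98 in D5-LP kidneys. A level on this array depends on the probes, so levels were compared between samples for a gene and not between genes.

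The kidney label was checked with 11 measured kidney genes. All 11 averaged 6 or more in every group, and their mean per array lay between 11.15 and 11.66 over the 30 arrays. Of 8 adrenal markers, 8 stayed under 6 in every group. Of 9 skeletal muscle markers, 7 did so. The mean of 5 adipose markers was 5.19 to 5.55 at D5, and higher later, between 6.19 and 7.77 on D10 arrays and between 6.34 and 7.06 on D28 arrays. Between replicates, correlations across probe sets were 0.983 to 0.998. The 3′ minus 5′ difference of 2 control transcripts, which grows as RNA degrades, lay between 0.40 and 0.79 over all groups. The number of arrays, 5 per group, limits the precision, and fewer cells of a type cannot be told apart from less RNA per cell in whole kidney.

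Promoter sequence is shown for 5 genes on which the results turn, namely the genes with the largest negative and positive differences over age (*Kcnd3*, *Kcnmb4*, *Kcnt1* and *Kcnk5*) and the gene called for diet (*Kcnj4*). RefSeq sequences of build GRCr8 were matched by symbol for 23 of the 33 genes, each with 250 bases before and 50 after the annotated start. The windows are chr2:195626066-195626365, plus strand for *Kcnd3*, chr7:54005052-54005351, minus strand for *Kcnmb4*, chr3:29081089-29081388, plus strand for *Kcnt1*, chr15:4171375-4171674, plus strand for *Kcnk5* and chr7:112954498-112954797, minus strand for *Kcnj4*. Capitals mark the GC box (GGGCGG), the TATA box (TATAAA), the CCAAT box (CCAAT) and the E-box (CACGTG), searched on both strands, and no 2 of these motifs contain each other.
Kcnd3: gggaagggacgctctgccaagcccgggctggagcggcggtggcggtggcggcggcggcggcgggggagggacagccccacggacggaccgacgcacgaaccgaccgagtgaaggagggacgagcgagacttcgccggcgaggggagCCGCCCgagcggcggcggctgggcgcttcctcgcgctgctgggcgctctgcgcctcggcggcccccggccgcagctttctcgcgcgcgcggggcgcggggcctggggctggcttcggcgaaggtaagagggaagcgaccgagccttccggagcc
Kcnmb4: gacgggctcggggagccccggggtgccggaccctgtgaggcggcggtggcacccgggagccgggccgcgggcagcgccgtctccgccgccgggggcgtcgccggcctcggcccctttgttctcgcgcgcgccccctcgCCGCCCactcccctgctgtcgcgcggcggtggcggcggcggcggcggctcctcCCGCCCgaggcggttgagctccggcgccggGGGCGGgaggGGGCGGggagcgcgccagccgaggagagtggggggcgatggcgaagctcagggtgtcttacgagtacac
Kcnt1: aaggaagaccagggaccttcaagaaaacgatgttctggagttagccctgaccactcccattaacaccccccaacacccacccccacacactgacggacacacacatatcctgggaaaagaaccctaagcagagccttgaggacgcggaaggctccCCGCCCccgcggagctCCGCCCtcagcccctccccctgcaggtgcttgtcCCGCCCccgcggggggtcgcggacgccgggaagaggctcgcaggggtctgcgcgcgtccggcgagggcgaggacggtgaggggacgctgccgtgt
Kcnk5: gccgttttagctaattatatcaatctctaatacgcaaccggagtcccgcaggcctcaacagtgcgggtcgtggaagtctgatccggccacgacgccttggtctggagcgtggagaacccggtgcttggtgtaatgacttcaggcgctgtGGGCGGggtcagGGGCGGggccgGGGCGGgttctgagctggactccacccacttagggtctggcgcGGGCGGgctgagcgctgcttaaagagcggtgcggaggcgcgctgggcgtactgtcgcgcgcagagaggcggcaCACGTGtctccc
Kcnj4: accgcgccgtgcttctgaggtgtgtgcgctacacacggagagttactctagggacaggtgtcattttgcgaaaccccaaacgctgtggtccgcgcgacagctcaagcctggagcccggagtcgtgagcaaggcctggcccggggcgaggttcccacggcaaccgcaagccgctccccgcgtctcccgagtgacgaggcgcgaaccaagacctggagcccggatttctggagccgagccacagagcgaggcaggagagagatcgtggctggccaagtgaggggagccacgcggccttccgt

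The GC box occurred 4 times each in the *Kcnk5* and *Kcnmb4* windows, 3 times in that of *Kcnt1* and once in that of *Kcnd3*. No searched motif stood in the *Kcnj4* window. Over the 23 windows, 13 (56.5%) held a GC box, against 33.1% of the 33469 promoter windows of the genome. The windows were also rich in CG pairs. The ratio of observed to expected CG pairs was at least 0.6 in 13 (56.5%), against 34.4% of all promoters. A CCAAT box stood in 5 windows (37.5% of all promoters), a TATA box in 1 (14.2%) and an E-box in 1 (6.42%). The E-box was in the *Kcnk5* window. These are matches of letters, and the arrays hold no measurement of binding to them.

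Over age, the Kv4 channel genes *Kcnd1* and *Kcnd3* and the big-conductance calcium-activated (BK) channel genes *Kcnma1* and *Kcnmb4* were lowest at D28. *Kcnt1* and *Kcnk5* were highest there. The dim further probe sets of *Kcnma1* and a dim one of *Kcnd3* did not show this, and *Kcnd2* at D28 overlapped D5. Because the arrays of each age may have been normalized apart, differences between ages are described without a p-value. A gene was counted as higher or lower where the ages differed by 1 or more on the log2 scale, a doubling, with the diets averaged, and the 10 arrays of one age did not overlap the 10 of the other. At D28 against D5, 2 of 33 genes were higher (*Kcnk5* and *Kcnt1*) and 6 were lower (*Kcnd3*, *Kcnmb4*, *Kcnma1*, *Kcnd1*, *Kcnip1* and *Kcne3*). Of all 31042 probe sets, 3.39% were higher and 5.51% were lower by the same rule. At D28 against D10, 1 gene was higher (*Kcnt1*, background 2.27%) and 6 were lower (*Kcnd3*, *Kcnmb4*, *Kcnma1*, *Kcnd1*, *Kcnip1* and *Kcnd2*, background 2.99%). At D10 against D5, 2 genes were higher (*Kcnip1* and *Kcnd2*, background 0.419%) and 0 were lower (background 0.586%). With LP arrays alone 0 genes were higher at D10 than at D5, since both differences were under 1 there, although the LP arrays of these ages did not overlap for either gene.

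The level threshold admits a gene through the age at which it is high, so these counts were not read against the background. Among all 73 measured channel genes, 3 were higher at D28 than at D5, *Kcne1* being the one outside the 33, with a highest group mean of 5.96, and 6 were lower. Among the 21 genes at 6 or more in all groups, 2 were higher and 2 were lower, and their median difference was 0.143. The median difference of all 31042 probe sets was −0.034. Over the 3 ages, 7 of the 33 genes had their highest mean at D5, 11 at D10 and 15 at D28. For the lowest mean the counts were 11 at D5, 7 at D10 and 15 at D28. Such counts were not made over all probe sets.

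**Figure D1:**
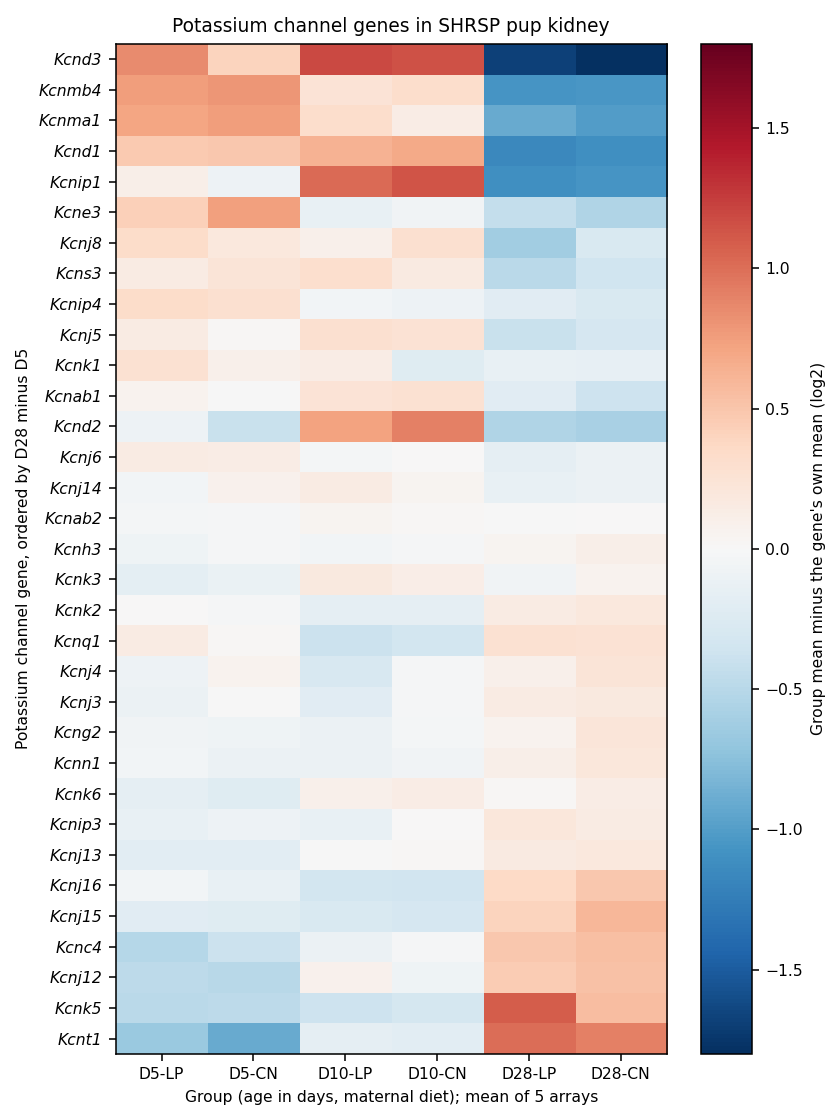
Group mean of each of the 33 channel genes minus the mean of its 6 groups (colour, log2 scale), with genes ordered down the page by their D28 minus D5 difference and groups across. *Kcnd3* (−2.42) stands at the top and *Kcnt1* (1.74) at the bottom, and both D28 columns are the darkest of the *Kcnd3* row.

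The Kv4 genes *Kcnd1*, *Kcnd2* and *Kcnd3* encode the pore subunits of the A-type current, a transient outward current that opens and inactivates quickly. *Kcnd3* had the largest difference of the 33 genes. In LP kidneys it read 7.25, 7.53, 7.72, 7.68 and 7.26 at D5, 7.66, 7.49, 7.81, 8.12 and 8.04 at D10, and 4.91, 5.05, 5.17, 4.82 and 4.79 at D28. In CN kidneys it read 7.28, 6.96, 6.83, 6.86 and 7.23 at D5, 7.39, 8.21, 8.25, 7.61 and 7.44 at D10, and 4.44, 4.95, 4.61, 4.83 and 4.84 at D28. Every D28 array lay at least 1 unit under every younger array, and the difference was −2.42 for D28 minus D5 and −2.96 for D28 minus D10, which are 5.35-fold and 7.77-fold. A second *Kcnd3* probe set had −1.62 for D28 minus D5, and another, dim one (mean 4.36) had 0.13.

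*Kcnd1* followed the same order of ages with a smaller size. It had 6.15 to 6.33 in D5-LP, 6.10 to 6.31 in D5-CN, 6.19 to 6.51 in D10-LP, 6.33 to 6.54 in D10-CN, 4.46 to 4.84 in D28-LP and 4.58 to 4.73 in D28-CN kidneys. D28 minus D5 was −1.61 without overlap, with D28 means of 4.59 (LP) and 4.65 (CN) under the level of 6, and D10 overlapped D5. *Kcnd2* peaked at D10. It had 5.20 to 5.76 in D5-LP, 5.05 to 5.44 in D5-CN, 5.95 to 6.79 in D10-LP, 6.10 to 7.08 in D10-CN, 4.92 to 5.34 in D28-LP and 4.88 to 5.26 in D28-CN kidneys. D10 minus D5 was 1.07 and D28 minus D10 was −1.38, both without overlap, and D28 overlapped D5. A second *Kcnd2* probe set moved alike, by 1.47 and −1.47.

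Kv4 pores assemble with cytosolic calcium-binding proteins, the KChIPs, of which *Kcnip1*, *Kcnip3* and *Kcnip4* were among the 33. *Kcnip1* shared the D10 peak. It had 6.39 to 6.99 in D5-LP, 6.23 to 6.70 in D5-CN, 7.21 to 7.85 in D10-LP, 7.27 to 8.09 in D10-CN, 5.39 to 5.66 in D28-LP and 5.45 to 5.61 in D28-CN kidneys. The 3 ages did not overlap, at 1.06 for D10 minus D5 and −2.15 for D28 minus D10. Its other probe sets, with means of 4.54 and 3.25, had −0.39 and −0.15 for D28 minus D5, against −1.09 here. *Kcnip4* differed by −0.55 for D28 minus D5 without overlap, under the size counted here, and *Kcnip3*, also a transcriptional repressor, by 0.28 with overlap. Of the transmembrane partners of Kv4, *Dpp6* differed by 0.24 for D28 minus D5, and *Dpp10* stayed under 6 in every group.

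The arrays of 1 group did not lie evenly. Among D10-CN kidneys, replicates 2 and 3 were the highest for *Kcnd3* (8.21 and 8.25), *Kcnd2* (6.96 and 7.08) and *Kcnip1* (8.02 and 8.09). The neurofilament genes *Nefl* and *Nefm*, from the nerve marker list, were highest in the same 2 arrays (*Nefl* 10.53 and 10.28, *Nefm* 10.65 and 10.56). The mean of 5 endothelium markers was also highest there (10.50 and 10.37, against 9.68 to 10.03 in the other D10-CN arrays), and the cortex marker mean was lowest (10.16 and 10.32, against 10.39 to 11.07). Among D10-LP kidneys the endothelium mean was 9.74, 9.78, 10.14, 10.24 and 10.08, with its lowest 2 and highest arrays in common with *Kcnd3*. The neurofilament genes were also lower at D28, with *Nefm* between 4.06 and 4.61 at D28 and between 9.60 and 10.65 at D5 and D10. Of the 8 nerve markers measured, *Snap25*, *Syt1*, *Tubb3*, *Stmn2*, *Gap43* and *S100b* stayed under 6 in every group. The list mean was 4.42 to 4.60 in D28-LP and 4.52 to 4.57 in D28-CN kidneys and 5.84 to 6.30 at the younger ages, a difference carried mainly by *Nefl* (−5.48 for D28 minus D5) and *Nefm* (−5.82). The median over the 8 markers was 0.02, with *Gap43* at −1.23 and, in the other direction, *Snap25* at 0.49 and *Tubb3* at 0.50. Over age, the 5 endothelium markers had medians of 0.60 for D28 minus D5 and 0.15 for D28 minus D10. The 9 cortex markers had 0.36 and 0.34. The part of nerve tissue, endothelium or cortex in the Kv4 values was not tested.

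**Figure D2:**
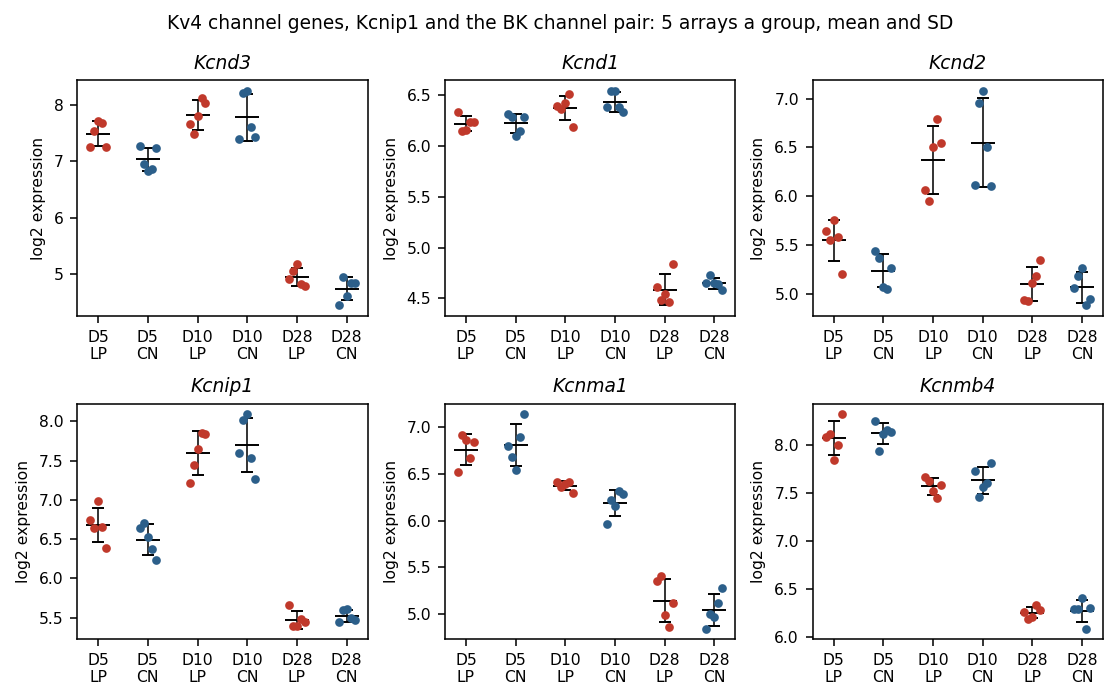
Log2 expression by array (points, red LP and blue CN, 5 per group) with group mean and SD (bars) for *Kcnd3*, *Kcnd1*, *Kcnd2*, *Kcnip1*, *Kcnma1* and *Kcnmb4*, groups in order of age. *Kcnip1* and *Kcnd2* are highest at D10, *Kcnma1* and *Kcnmb4* step down at each age, and all 6 are lowest on average at D28.

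The BK channel, which in the collecting duct secretes potassium when tubular flow is high, has its pore encoded by *Kcnma1*, and *Kcnmb4* encodes a beta subunit that slows its gating. Both were lower at each later age. *Kcnma1* read 6.52, 6.92, 6.86, 6.67 and 6.84 in D5-LP, 6.8, 6.68, 6.54, 6.90 and 7.14 in D5-CN, 6.41, 6.36, 6.39, 6.41 and 6.30 in D10-LP, 5.96, 6.22, 6.16, 6.32 and 6.29 in D10-CN, 5.35, 5.40, 4.99, 4.86 and 5.11 in D28-LP, and 4.84, 5.00, 4.96, 5.12 and 5.28 in D28-CN kidneys. The ages did not overlap, and D28 minus D5 was −1.69, with D28 means of 5.14 (LP) and 5.04 (CN) under the level of 6. The other *Kcnma1* probe sets averaged 4.39 and 4.07, differed by 0.14 and 0.18, and did not show this difference. *Kcnmb4*, with 1 probe set, had 7.85 to 8.32 in D5-LP, 7.94 to 8.25 in D5-CN, 7.45 to 7.67 in D10-LP, 7.46 to 7.81 in D10-CN, 6.19 to 6.34 in D28-LP and 6.09 to 6.41 in D28-CN kidneys. D10 minus D5 was −0.49 and D28 minus D10 was −1.34, without overlap in either step. The further BK partners *Lrrc26* and *Lrrc38* stayed under 6 in every group.

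*Kcne3*, a single-pass subunit that holds the Kv7 channel of *Kcnq1* open in epithelia, was highest at D5. It had 7.78 to 8.15 in D5-LP, 8.00 to 8.41 in D5-CN, 7.20 to 7.61 in D10-LP, 7.16 to 7.58 in D10-CN, 6.69 to 7.33 in D28-LP and 6.74 to 7.05 in D28-CN kidneys. D28 minus D5 was −1.07 without overlap, under 1 in size with quantile normalization or median centring, and −0.33 with the mean of its 2 probe sets, the second of which is dim (mean 4.33). *Kcnq1* was lowest at D10, with −0.44 for D10 minus D5 and 0.63 for D28 minus D10, both without overlap.

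*Kcnt1*, the sodium-activated Slack channel, had the largest positive difference. In LP kidneys it read 7.02, 6.93, 7.01, 6.65 and 6.95 at D5, 7.13, 6.83, 7.66, 7.82 and 7.61 at D10, and 8.44, 8.60, 8.69, 8.67 and 8.51 at D28. In CN kidneys it read 6.73, 6.53, 6.29, 6.89 and 6.93 at D5, 7.04, 7.35, 7.62, 7.52 and 7.36 at D10, and 8.38, 9.04, 8.19, 8.35 and 8.46 at D28. D28 lay above both younger ages in every array, by 1.74 over D5 and 1.14 over D10, and D10 overlapped D5. The inner medulla and collecting duct mean was also higher at the last age, 10.79 to 11.93 on D28 arrays and 10.28 to 10.86 on D5 arrays. In D28-LP kidneys it read 11.10, 11.50, 11.93, 11.69 and 11.32, the same order of arrays as *Kcnt1*. Replicate 2 of D28-CN was highest of its group for both (9.04 for *Kcnt1* and 11.55 for the markers). The order was not kept in the other D28-CN arrays, with *Kcnt1* lowest in replicate 3 (8.19) and the markers in replicate 1 (10.79). Among D5-CN kidneys, replicate 2 had the highest marker mean (10.65) and a *Kcnt1* value of 6.53, against 6.29 to 6.93 in that group. The part of medulla in the *Kcnt1* values was not tested. A second *Kcnt1* probe set had 2.02 for D28 minus D5 and the last had 0.15. *Kcnn1*, a small-conductance calcium-activated channel, differed by 0.24 with overlap.

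*Kcnk5* encodes TASK-2, an alkali-sensitive K2P channel that in the mouse proximal tubule takes part in bicarbonate reabsorption. It had 7.34 to 7.65 in D5-LP, 7.36 to 7.59 in D5-CN, 7.46 to 7.77 in D10-LP, 7.29 to 8.09 in D10-CN, 8.89 to 9.12 in D28-LP and 7.92 to 8.87 in D28-CN kidneys. D28 was 1.31 over D5 without overlap and 1.17 over D10, where replicate 3 of D28-CN (7.92) lay under replicate 2 of D10-CN (8.09). Without either of these arrays the ages did not overlap. The other K2P genes differed less between D28 and D5. *Kcnk1*, a weakly inward rectifying leak channel, had −0.33, its relative *Kcnk6* 0.27, the acid-sensitive *Kcnk3* 0.14 and the mechanosensitive *Kcnk2* 0.17, all with overlap.

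Of the Kv genes outside the Kv4 family, *Kcnc4*, a fast Kv3 channel, had 5.30 to 5.65 in D5-LP, 5.43 to 5.73 in D5-CN, 5.73 to 5.89 in D10-LP, 5.72 to 6.10 in D10-CN, 6.29 to 6.65 in D28-LP and 6.34 to 6.59 in D28-CN kidneys. Its D28 arrays lay above all younger ones, and D28 minus D5 was 0.97. *Kcns3*, a silent subunit that alters Kv2 channels, differed by −0.61 without overlap. The other silent subunit, *Kcng2*, differed by 0.22, and the ether-à-go-go type channel *Kcnh3* by 0.12, both with overlap. The Kv1 beta subunits *Kcnab1* and *Kcnab2* differed by −0.32 and 0.03, with overlap.

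Among the Kir genes, *Kcnj15*, a channel of the basolateral membrane of proximal tubule cells, and *Kcnj16*, which forms channels together with Kir4 subunits, were highest at D28. *Kcnj15* read 10.47, 10.42, 10.51, 10.78 and 9.98 in D5-LP, 10.54, 10.67, 10.72, 10.00 and 10.14 in D5-CN, 10.75, 10.95, 10.11, 9.79 and 10.20 in D10-LP, 10.83, 9.93, 10.06, 10.20 and 10.61 in D10-CN, 11.53, 11.18, 10.32, 10.80 and 11.38 in D28-LP, and 11.56, 10.23, 11.43, 11.45 and 11.45 in D28-CN kidneys. Its D28 minus D5 difference of 0.71 came with overlap, since replicate 3 of D28-LP and replicate 2 of D28-CN lay among the D5 arrays. *Kcnj16* had 10.89 to 11.35 in D5-LP, 10.78 to 11.22 in D5-CN, 10.45 to 11.12 in D10-LP, 10.50 to 11.42 in D10-CN, 11.08 to 11.79 in D28-LP and 11.18 to 11.84 in D28-CN kidneys, with the same 2 D28 arrays lowest. *Kcnj12*, a strongly rectifying Kir2 channel, differed by 0.97 without overlap, and these arrays were again the lowest of their groups (5.99 and 5.92, against 6.41 to 7.04 in the other D28 arrays).

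The cortex markers moved with these genes from array to array. The mean of 9 cortex genes, mostly proximal tubule transporters, was 10.34 in replicate 3 of D28-LP and 10.32 in replicate 2 of D28-CN, against 10.71 to 11.26 in the other D28 arrays. The mean of 8 inner medulla and collecting duct genes was highest of each group in the same 2 arrays, at 11.93 and 11.55. At D10 the lowest *Kcnj15* values, 9.79 in replicate 4 of D10-LP and 9.93 in replicate 2 of D10-CN, also stood with the lowest cortex means, 10.06 and 10.16. All 9 cortex markers averaged 6 or more in every group. How much of the *Kcnj15*, *Kcnj16* and *Kcnj12* values goes with the share of cortex in the sample was not tested.

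**Figure D3:**
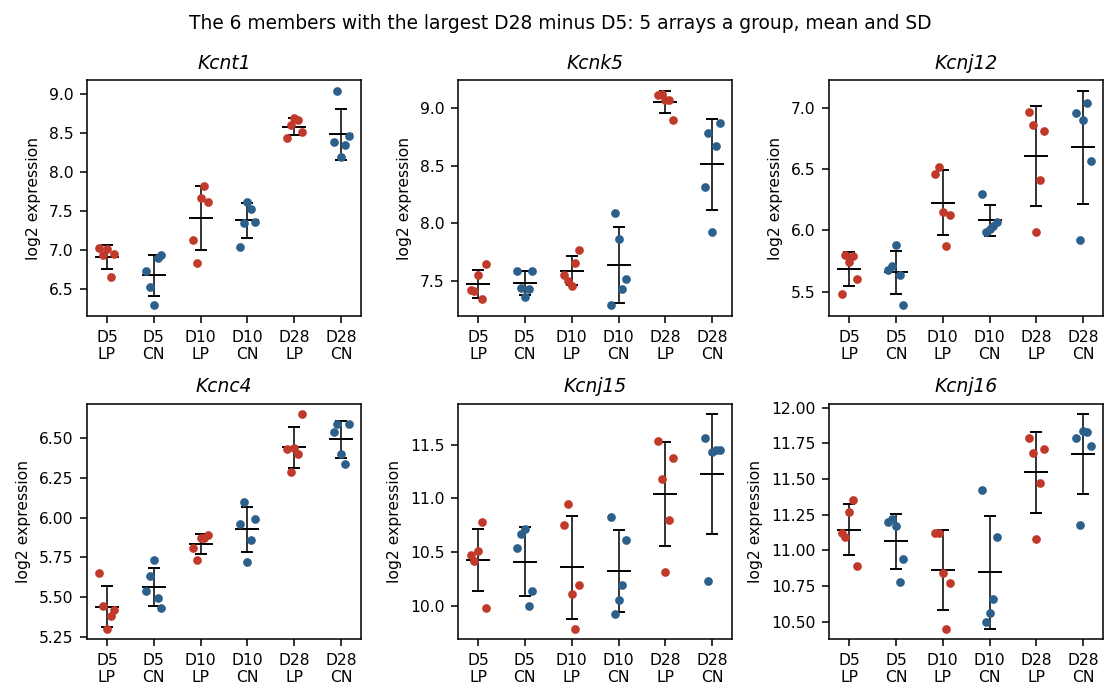
Log2 expression by array (points, red LP and blue CN, 5 per group) with group mean and SD (bars) for *Kcnt1*, *Kcnk5*, *Kcnj12*, *Kcnc4*, *Kcnj15* and *Kcnj16*. The D28 arrays of *Kcnt1* and *Kcnc4* lie above all younger ones, and 1 low array per diet at D28 stands out for *Kcnj15* and *Kcnj16*.

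**Figure D4:**
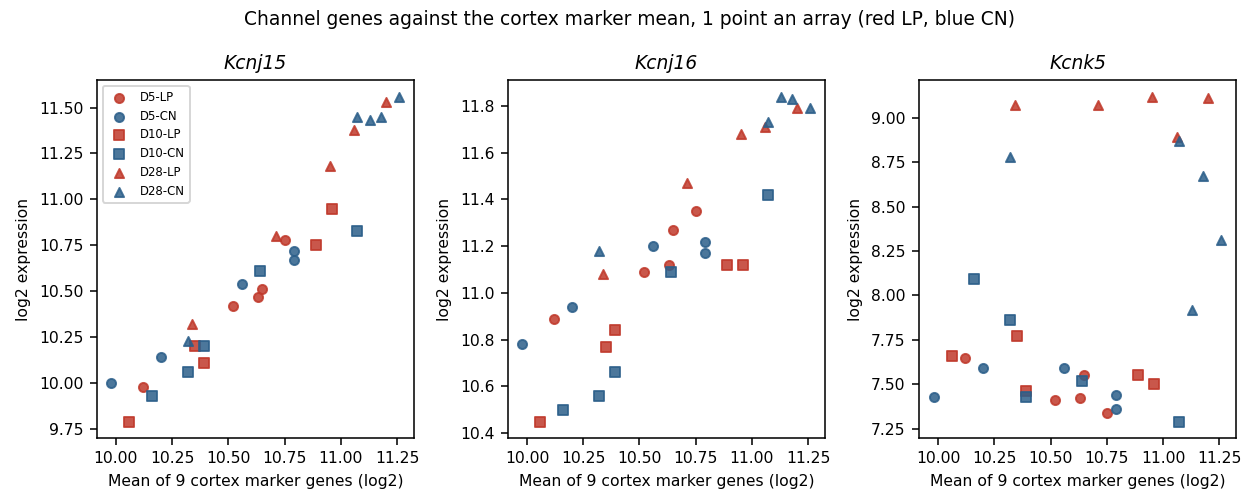
Log2 expression of *Kcnj15*, *Kcnj16* and *Kcnk5* (vertical axes) against the mean of 9 cortex marker genes on the same array (horizontal axes), 1 point per array, shapes for age, red LP and blue CN. The *Kcnj15* points mostly rise with the cortex mean. At a cortex mean of 11.07, *Kcnj15* reads 10.83 in replicate 1 of D10-CN and 11.45 in replicate 5 of D28-CN. Other pairs lie closer. At 10.32, *Kcnj15* reads 10.06 in replicate 3 of D10-CN and 10.23 in replicate 2 of D28-CN. In replicate 2 of D10-LP (cortex mean 10.96) it reads 10.95, and in replicate 2 of D28-LP (10.95) it reads 11.18. The *Kcnk5* points of D28 (7.92 to 9.12) stand above most younger ones.

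The remaining Kir genes differed by under 1. *Kcnj8*, the pore of the vascular ATP-sensitive channel, had −0.71 for D28 minus D5 with overlap, while its sulfonylurea receptor partner *Abcc9* had 0.60, also with overlap. The mean of 7 smooth muscle markers was 7.17 to 8.30 on D28 arrays and 7.50 to 8.22 on D5 arrays. The G protein-gated channels *Kcnj3*, *Kcnj5* and *Kcnj6* had 0.21, −0.43 and −0.28, the last without overlap. The strong rectifiers *Kcnj4* and *Kcnj14* had 0.18 and −0.14 with overlap, and *Kcnj13*, a weak rectifier of transporting epithelia, 0.36 without overlap. *Kcnj6* and *Kcnj15* were the only 2 of the 33 genes that neighbour each other on a chromosome in the GRCr8 annotation of protein-coding genes, and they differed in opposite directions (−0.28 and 0.71).

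Genes that act on these channels were given as lists. Of 16 measured partners and regulators, *Sgk1* (1.27) and *Amigo1* (1.04) had the largest D28 minus D5 differences, followed by *Lrrc26* (0.68). *Sgk1* encodes an aldosterone-induced kinase and *Amigo1* a Kv2 partner. Only *Amigo1* was higher by the rule at D28 against D5, and 0 were lower, with a list median of 0.15. Of 10 measured genes of potassium transport beside the channels, only *Atp12a*, the colonic H,K-ATPase, was lower (−1.95), with 5.08 to 5.59 at D28 and 6.81 to 7.58 at D5. *Slc12a2*, the sodium-potassium-chloride cotransporter NKCC1, and *Bsnd*, a chloride channel subunit, had −0.67 and 0.68.

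Between diets within an age, none of the 33 genes was called, and the largest differences were small beside the largest of age. This did not hold gene by gene. *Kcnk1* had a diet difference of 0.37 at D10, against −0.33 for D28 minus D5, and *Kcnj4* −0.25 at D10, against 0.18. The limma fit over 31042 probe sets, with Benjamini-Hochberg adjusted p under 0.2 as the call, gave 0 of 33 genes at D5 (background 0.00644%), 0 at D10 (background 0%) and 0 at D28 (background 0%). Unadjusted p was under 0.05 for 4, 3 and 3 genes, that is 12.1%, 9.09% and 9.09%, against 8.19%, 5.02% and 6.09% of all probe sets. The methods' t-test gave 3, 3 and 2 such genes and called 0. LP minus CN differences lay between −0.31 and 0.46 in D5 kidneys, between −0.25 and 0.37 in D10 kidneys and between −0.35 and 0.54 in D28 kidneys.

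At D5, *Kcnd3* had 7.49 ± 0.22 in D5-LP and 7.03 ± 0.21 in D5-CN kidneys (SD, n = 5 arrays each). All 5 LP arrays lay above the CN mean, with overlap of 7.25 and 7.26 in LP with 7.28 in CN. LP minus CN came to 0.46 with an SE of 0.12. The limma adjusted p was 0.398. A 2-sided exact permutation test, not adjusted for the number of genes, gave p = 0.0238. *Nefl* and *Nefm* were 0.46 and 0.41 higher in LP in the same comparison, and *Dpp6* 0.46. Over the whole nerve list 3 of 8 markers were above 0, with a median of −0.03, and over the endothelium list 5 of 5 were, with a median of 0.22. The part of these tissues in the difference was not tested. *Kcne3* ran the other way, with 7.88 ± 0.15 in D5-LP and 8.19 ± 0.18 in D5-CN kidneys (SD, n = 5 each), which is −0.31 with an SE of 0.09. The limma adjusted p was 0.492, and the exact permutation test gave an unadjusted p of 0.0238. *Kcnd2* (0.31) and *Kcnk1* (0.18) were the other genes with unadjusted p under 0.05.

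At D10, *Kcnj4*, a Kir2 channel, was the only one of the 33 genes whose diets did not overlap, against 1.11% of all probe sets. It read 6.33, 6.57, 6.47, 6.64 and 6.66 in D10-LP and 6.8, 6.77, 6.95, 6.69 and 6.73 in D10-CN kidneys. Every LP array lay under every CN array, at −0.25 with an SE of 0.08. The adjusted p was 0.948 in limma. The exact permutation test gave an unadjusted p of 0.00794, the smallest that 5 against 5 arrays allow. Any gene without overlap gets this value, so it restates the absence of overlap. *Kcnj3* had 5.74 ± 0.11 in D10-LP and 5.92 ± 0.07 in D10-CN kidneys (SD, n = 5 each), a difference of −0.19 (SE 0.06, limma adjusted p = 0.948). *Kcnma1* (0.18) also had an unadjusted p under 0.05.

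At D28, *Kcnk5* was the only gene without overlap between diets, against 0.857% of all probe sets. It read 9.11, 9.12, 9.07, 9.07 and 8.89 in D28-LP and 8.31, 8.78, 7.92, 8.67 and 8.87 in D28-CN kidneys. The LP arrays lay close together and the CN arrays spread over 1 unit below them, at 0.54 with an SE of 0.16, or 1.46-fold. The adjusted p was 0.77 in limma. The exact permutation test again gave an unadjusted p of 0.00794, which the absence of overlap fixes. Without replicate 3 of D28-CN the difference was 0.39. The regulator *Sgk1* read 12.52, 12.59, 12.31, 12.34 and 12.17 in D28-LP and 10.76, 12.13, 11.30, 12.02 and 12.07 in D28-CN kidneys, also without overlap. For both genes the lowest 2 CN arrays were replicates 1 and 3. The inner medulla and collecting duct mean was 11.10 to 11.93 in D28-LP and 10.79 to 11.55 in D28-CN kidneys. Of its 8 markers, 7 were higher in LP at D28 (median 0.36), as were 8 at D5 and 8 at D10, with 0 called. Averaged over the 3 ages, all 8 were higher in LP (median 0.21). The unadjusted limma p of this average was under 0.05 for 6 of the 8, against 11.4% of all probe sets, with 0 called. Of 9 cortex markers, 1 was higher in LP at D28 (median −0.15). The part of either region in the *Kcnk5* difference, or in other diet differences, was not tested. *Kcng2* had 6.0 ± 0.09 in D28-LP and 6.16 ± 0.09 in D28-CN kidneys (SD, n = 5 each), a difference of −0.16 (SE 0.06, limma adjusted p = 0.77). *Kcnj8* (−0.35) also had an unadjusted p under 0.05.

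Averaged over the 3 ages, 1 of the 33 genes, *Kcnj4*, was called, against 0.312% of all probe sets. Its means were 6.72 ± 0.08 in D5-LP and 6.88 ± 0.18 in D5-CN, 6.53 ± 0.14 in D10-LP and 6.79 ± 0.10 in D10-CN, and 6.90 ± 0.13 in D28-LP and 7.05 ± 0.07 in D28-CN kidneys (SD, n = 5 each). LP was lower at each age, and 14 of 15 LP arrays lay under the CN mean of their age. The averaged difference was −0.19, or 1.14-fold (SE 0.05, limma adjusted p = 0.181, exact permutation within ages p = 0.000331). With 1 array left out, 13 of 30 fits kept the call, with adjusted p between 0.0681 and 0.271 among the 30, and the sign stayed negative in all of them. The call was also lost with the replicate block (limma adjusted p = 0.206) and with the mean of its probe sets (limma adjusted p = 0.211). The dim second *Kcnj4* probe set, at a mean of 4.38, had −0.02, −0.02 and −0.11 at the 3 ages. *Kcnd3* was next among genes by averaged p with the opposite sign, at 0.24 (SE 0.09, limma adjusted p = 0.304), with 13 of 15 LP arrays above the CN mean.

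**Figure D5:**
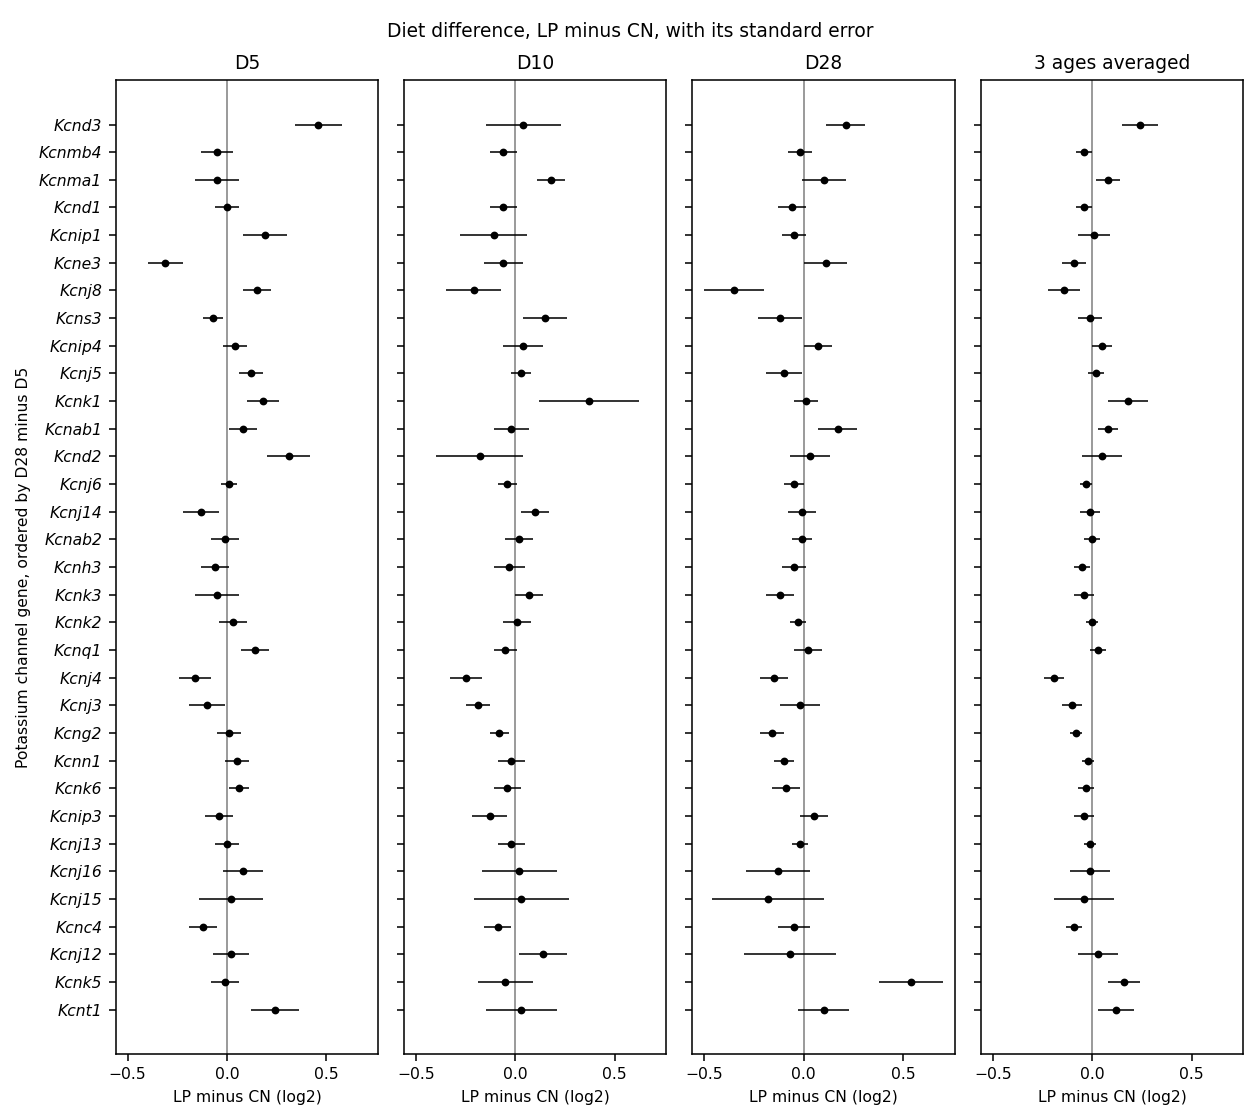
LP minus CN difference (log2 scale, points) with its standard error (bars) for the 33 channel genes at D5, D10 and D28 and averaged over the 3 ages. Most points lie near 0, *Kcnj4* lies below 0 in all panels, and *Kcnk5* at D28 (0.54) and *Kcnd3* at D5 (0.46) lie farthest to the right.

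The diet difference was also compared between ages in the fit of all 30 arrays. Of the 33 genes, 0 were called in each of the 3 contrasts (background 0% each), and the unadjusted p was under 0.05 for 2, 5 and 1 of them at D10 against D5, D28 against D5 and D28 against D10. These are 6.06%, 15.2% and 3.03% of the genes, against 4.64%, 4.35% and 3.70% of all probe sets. *Kcnk5* had the smallest p of 2 contrasts, with a diet difference 0.55 larger at D28 than at D5 (SE 0.19, limma adjusted p = 1.00) and 0.59 larger than at D10 (SE 0.19, limma adjusted p = 0.935). *Kcnd2* had the smallest p at D10 against D5, with a change of −0.49 in the diet difference (SE 0.23, limma adjusted p = 0.999). Of the partner and regulator list and of the potassium transport list, 0 genes were called for diet at any age or averaged.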

How the data were processed

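Kidney RNA of 30 samples was measured on GeneChip rat genome arrays. The authors normalized the arrays in R 3.3.2 and deposited a log2 value per probe set and array, named qFARMS in their tables, which summarises probes by factor analysis. Those log2 values were used as deposited. The authors' tables per age hold their own comparisons and 30 array columns that name no sample, and were not used. Whether the ages were normalized together is not given in the sources used here. Array means were 6.922 to 6.939 at D5 and 6.854 to 6.869 at D10 and D28, and array maxima overlapped between neighbouring ages. Age differences were therefore described. Limma p-values between ages, planned at adjusted p under 0.05, stand only among the alternatives and in the rule for genes named in detail.

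Of 31099 probe sets, 57 controls were left out and 31042 tested with limma 3.58.1 in R 4.3.3 (lmFit, eBayes), within each age for diet and over all arrays for averaged and diet by age contrasts. The symbol column gave 1 gene for 20826 probe sets, several for 436 and none for 9780. Single values were tested over 252 splits of arrays, without adjustment for the number of genes. Fits were tested on simulated data. Alternatives were quantile normalization, median centring, dim probe sets left out, eBayes with trend and robust, array weights and a replicate block. Others were the mean of a gene's probe sets, Student's t-test of diet and 1 diet alone for age. Also used were other level thresholds and fits with 1 array left out. The labels call the arrays biological replicates, but the methods speak of pooled RNA and litters are not given, so p-values measure only the spread between arrays, which may be technical.

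The genes and lists were chosen with earlier results of these data known, and 2 further Kcn genes named in the selection rule are not reported here. Named in detail were the 6 genes with the largest D28 minus D5 difference in each direction, among those at limma adjusted p under 0.05. Also named were those with the smallest p in each diet contrast, and those beside the level threshold. *Nefl*, *Nefm*, *Kcne1* and the other probe sets were named after their values were seen. Tools were Python 3.11.15, numpy, pandas and matplotlib.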

Additional observations from a re-analysis of the deposited data

Results flagged for a closer look

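In 8 of 108 groups of 5 arrays (18 genes in 6 groups), 1 array lay apart from the other 4 by Dixon's test, and chance gives about 1 in 20. *Kcnj15* read 10.23 in replicate 2 of D28-CN, against 11.43 to 11.56 in the others, and *Kcnj16* read 11.18 in the same array, against 11.73 to 11.84. *Kcnk5* read 8.89 in replicate 5 of D28-LP, against 9.07 to 9.12. *Kcne3* read 8.15 in replicate 5 of D5-LP, against 7.78 to 7.85. *Kcnt1* read 6.65 in replicate 4 of D5-LP, against 6.93 to 7.02, and *Kcnj3* read 6.03 in that array, against 5.77 to 5.81. *Kcnj12* read 6.30 in replicate 1 of D10-CN, against 5.99 to 6.07. *Kcnq3*, outside the level threshold, read 5.74 in replicate 1 of D28-CN, against 5.45 to 5.53.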

How the results depend on the processing

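Calls for diet within an age and for diet by age stayed at 0 under all alternatives run, with 1 array left out included. For the averaged diet effect, the count of 1 became 6 with array weights (*Kcnk5*, *Kcnt1*, *Kcnj4*, *Kcnd3*, *Kcng2* and *Kcnj3*), 0 with the replicate block, 0 with the mean of all probe sets, and 0 to 1 with 1 array left out. The replicate numbers did not pair the samples (correlations of deviations −0.705 to 0.649), and the replicate block changed no other diet call.

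Between ages, the counts moved as follows. At D10 over D5, the 2 higher genes became 1 with the mean of probe sets, 0 with LP arrays alone, 1 among genes at 7 or more and 12 by limma adjusted p under 0.05. The 0 lower became 8 by limma and 2 at a difference of 0.5. At D28 over D10, the 1 higher became 0 with the mean of probe sets, 2 with LP arrays alone, 2 by limma with a difference of 1 (also with trend, array weights or replicate block), 15 by limma alone, 3 at 0.5, and 1 to 2 with 1 array left out. The 6 lower became 3 among genes at 7 or more, 5 with the mean of probe sets (*Kcnma1* lost) and 15 by limma alone. At D28 over D5, the 2 higher became 4 with quantile normalization, 4 with median centring (in both *Kcnj12* and *Kcnc4* added, and 5 lower, *Kcne3* lost), 4 at 0.5, 3 with CN arrays alone (*Kcnj12* added), 17 by limma and 2 to 3 with 1 array left out. The 6 lower became 3 with the mean of probe sets, 5 with LP arrays alone (*Kcne3* lost), 5 with CN arrays alone (*Kcnip1* lost) and 15 by limma. The limma counts between ages also measure any difference between normalization runs. The descriptive rule and the step of 0.5 were chosen after seeing the data.

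The 33 genes became 54 at a level of 5, 21 at 7 and 21 at 6 in all groups. Of 1410 alternative values of single genes, 4 changed sign. *Kcne3*, D28 minus D10, was 0.08 with the mean of probe sets. *Kcnab2* was −0.005 for D28 minus D5 with the mean of probe sets, and for D28 minus D10 was 0.013 with median centring and 0.06 with the mean of probe sets. The cause was not tested.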
